A study of Mus musculus with 17 samples.

Results

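The genes described here are the 4 mouse genes of the inhibitor of DNA binding family (Id1, Id2, Id3 and Id4) and 5 genes that carry or answer the signal of bone morphogenetic proteins (Smad6, Smad7, Smad9, Bmp4 and Bambi). They were taken by symbol from a table of read counts per gene, and their 9 rows were found among the 55359 genes of that table. The set was put together with results of the genotype comparisons already known, so every fold change and adjusted p-value of a member in these comparisons is a description of where it lay among all genes and is no independent evidence.

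The study asked how osteocalcin of the mother and of the embryo, a hormone made by bone, shapes the physiology of the offspring. RNA was sequenced from testes and forebrain of male mice at postnatal day 1, of the OcnGK strain on a 129/SvEv background, a germline knockout made by homologous recombination. The WT group was pups of WT mothers (2 testes libraries and 3 forebrain libraries). The Ocn+/- pups and the Ocn-/- pups (3 libraries of each in each organ) all had Ocn-/- mothers. Because mutant pups and WT pups never shared a kind of mother, effects of the pup's own genotype, of the maternal genotype and of the litter cannot be told apart in any comparison with WT. The methods give one hour of collection in the evening for the testes of all genotypes. The labels call the brain tissue hippocampus, whereas the study describes a forebrain that includes the hippocampus, and the second name is used here. Nothing in the labels says whether libraries of 1 group came from separate litters, so p-values measure the spread between these libraries. Nor do they say whether 1 pup gave both organs, and the fit of both organs treated all libraries as separate.

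ID proteins are small helix-loop-helix proteins that lack the DNA-binding stretch of their relatives. They pair with the E proteins (Tcf3, Tcf4 and Tcf12) and thereby keep tissue-specific basic helix-loop-helix factors from binding DNA, which holds many progenitor cells in an undifferentiated state. Their genes are among the most direct targets of bone morphogenetic proteins: ligands such as BMP4 bind receptor kinases, the kinases phosphorylate the receptor SMADs (SMAD1, SMAD5 and SMAD9), and these enter the nucleus with SMAD4. The same signal switches on its own brakes, the inhibitory SMADs (SMAD6 and SMAD7) and BAMBI, a receptor without a kinase.

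Total counts ran from 7302401 to 8289015 per testes library and from 6518151 to 14621584 per forebrain library. The forebrain library of the third WT pup stood apart: it was the shallowest, 8.50% of its counts fell on the ribosomal RNA gene Rn18s-rs5, 5.34% were mitochondrial, and its median correlation with the other forebrain libraries was 0.964, against 0.976 to 0.982 for the others. The main forebrain results are given with and without it. Testes libraries differed in the median log2 deviation of their GC-rich genes. Both WT testes were negative (-0.18, -0.11), whereas every Ocn+/- testis was positive (0.22, 0.087, 0.24). Values for Ocn-/- testes had mixed signs (0.021, -0.25, 0.042) and overlapped WT. The forebrain genotypes overlapped in this measure. Fits with GC offsets are among the alternatives, and the source of the shift was not tested. Transcripts of the deleted genes could not check the labels, since Bglap had 0 to 5 counts and Bglap2 0 counts in all 17 libraries. All 7 neuron markers and all 9 hippocampus markers were tested in forebrain, and all 10 Sertoli cell, 9 germ cell and 7 fetal Leydig cell markers in testes. None of these markers was at 0 in every library of its organ.

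Promoter sequence shows which of the known SMAD-binding letters stand before the start of the Id genes that the comparisons turn on. RefSeq windows of 250 bases before the annotated start (build GRCm38.p6) were at hand for 6 of the 9 members (Id2, Id3, Id4, Smad6, Smad9 and Bmp4). They are shown for Id2, which was lower in mutants of both organs, for Id3, which was lower in Ocn-/- testes, and for Id4, which passed the test in no mutant, each 5′ to 3′ on the strand of the gene. The places are chr12:25096093-25096342 on the minus strand for Id2, chr4:136143572-136143821 on the plus strand for Id3 and chr13:48260866-48261115 on the plus strand for Id4. Capitals mark every match, on either strand, to the GC-rich SMAD element GGCGCC, the SMAD box CAGAC, the core TGACG of the cyclic AMP response element, the CCAAT box and the TATA box TATAAA.
Id2: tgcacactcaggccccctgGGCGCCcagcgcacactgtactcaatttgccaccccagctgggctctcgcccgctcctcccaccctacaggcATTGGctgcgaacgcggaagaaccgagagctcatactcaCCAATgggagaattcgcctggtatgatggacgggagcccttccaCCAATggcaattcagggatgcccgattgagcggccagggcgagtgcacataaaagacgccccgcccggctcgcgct
Id3: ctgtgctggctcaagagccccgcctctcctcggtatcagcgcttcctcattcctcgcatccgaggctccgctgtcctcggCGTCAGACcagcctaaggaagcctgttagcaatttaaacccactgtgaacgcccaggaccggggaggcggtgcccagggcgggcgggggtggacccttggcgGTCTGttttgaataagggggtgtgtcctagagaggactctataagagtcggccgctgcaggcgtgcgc
Id4: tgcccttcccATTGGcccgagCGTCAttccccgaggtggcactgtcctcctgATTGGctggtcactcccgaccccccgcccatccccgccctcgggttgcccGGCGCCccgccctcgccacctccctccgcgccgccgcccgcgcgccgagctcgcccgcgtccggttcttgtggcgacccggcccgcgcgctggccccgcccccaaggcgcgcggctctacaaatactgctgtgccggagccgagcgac

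The GC-rich SMAD element began 231 bases before the start in Id2 and 148 bases before it in Id4, and Smad9 held it 51 bases before its start. It stood in 9.59% of 32851 RefSeq windows of this length. Id3 had no such element, but had the SMAD box at 167 and 68 bases before its start, a motif of 42.2% of all windows. The first of these overlapped the TGACG core of Id3, which lay 170 bases before the start. Id4 held that core 229 bases before its start, and 17.8% of all windows had one. CCAAT occurred 3 times in Id2 and 2 times in Id4 (33.8% of all windows), and TATAAA in none of the 6 windows (12.4% of all windows). Smad6 and Bmp4 matched none of the 5 motifs. These matches describe the letters of each window and say nothing of binding.

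In the genome build of the counts, GRCm39, the 4 Id genes lie apart, Id1 at chr2:152566218-152579544, Id2 at chr12:25143798-25147282, Id3 at chr4:135870808-135873066 and Id4 at chr13:48414558-48419502, and all 9 members are protein-coding. Counts cover exons and UTRs of all annotated transcripts of a gene. Exons of Id2 overlap those of the opposite-strand Gm36287, which had 0 to 5 counts, and Id4 overlaps Gm49291, which had 0 to 9.33 counts. Bmp4 overlaps Gm15222, with 0 to 30 counts on the other strand. Whether the libraries kept strand is not given in the sources used here, so reads of such pairs cannot be told apart. At most 0.254% of the 50-base stretches of a member occurred in another gene, the highest share being that of Id2.

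The organs differed in which Id gene led. Levels that are compared between genes are CPM (counts scaled to the total of the library and normalized over both organs) per kb of exon. In WT forebrain Id2 led with 54.2 ± 6.22 (SD, n = 3), ahead of Id4 with 24.7 ± 6.58, Id3 with 10.99 ± 1.96 and Id1 with 6.59 ± 0.111. In WT testes Id3 led with 33.6 ± 0.845 (SD, n = 2), followed by Id2 with 18.5 ± 0.721, Id1 with 14.8 ± 2.30 and Id4 with 4.08 ± 0.652. In both organs each step between neighbours among these 4 was larger than the summed SDs of the pair. Of the other members, Smad7 was the most abundant per kb in both organs, with 14.5 ± 0.617 in testes, a level that Id1 did not exceed beyond its spread, and 3.51 ± 0.610 in forebrain. Below it, Bambi (4.93 ± 0.533), Smad6 (4.50 ± 0.676) and Id4 did not differ beyond their spread in testes, and Bmp4 stood at 2.18 ± 0.318 and Smad9 at 0.895 ± 0.124. In forebrain Bambi (0.960 ± 0.230), Smad9 (0.784 ± 0.0660) and Smad6 (0.656 ± 0.352) did not differ beyond their spread, nor did Smad6 from Bmp4 (0.304 ± 0.0753).

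In edgeR's fit of both organs, 8 of the 9 members passed the threshold (adjusted p under 0.05) between forebrain and testes of WT pups, where 71.1% of 17800 genes did, 34.2% being higher and 36.9% lower in forebrain. Id2 was higher in forebrain by 1.54 ± 0.18 and Id4 by 2.59 ± 0.22 on the log2 scale (± standard error, as for all fold changes here). The other 6 were lower in forebrain, from Id1 (-1.17 ± 0.23) and Id3 (-1.59 ± 0.14) to Bmp4 (-2.82 ± 0.39) and Smad6 (-2.88 ± 0.34). Smad9 did not pass, with -0.20 ± 0.36. Organ and everything else that differs between the dissections change together here.

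**Figure D1:**
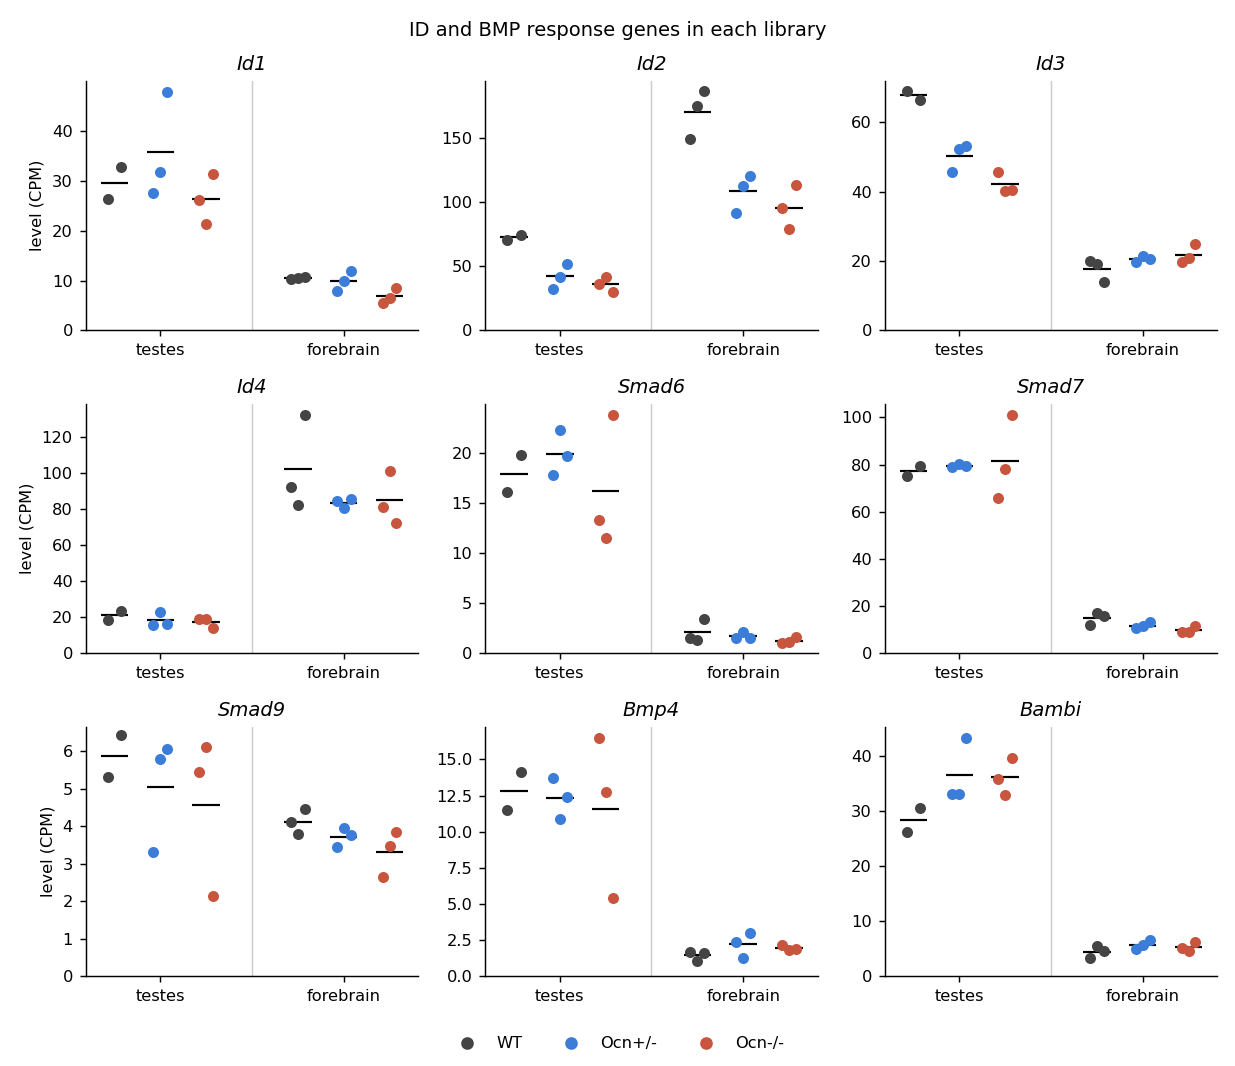
Level of each of the 9 genes in CPM (normalized within each organ, linear axis from 0) in every library of testes (left of the grey line) and forebrain (right). Points are libraries, coloured by genotype, and bars are group means. Id2 of every mutant library lies below every WT library in both organs, and Id3 does so in testes, where no mutant library reaches the lowest WT value of 66.4 CPM.

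Against WT, few members passed the test. In Ocn+/- testes 1 of 9 members did (Id2, lower), where 8.25% of 16361 genes passed in edgeR's quasi-likelihood test, and in Ocn-/- testes 2 of 9 (Id2 and Id3, lower), where 5.64% passed. In forebrain 1 of 9 members, again Id2 and again lower, passed in Ocn+/- (3.89% of 16076 genes) and in Ocn-/- pups (4.85%). With both mutant genotypes averaged, 2 members passed in testes (9.94% of genes) and 1 in forebrain (8.68%). All of these calls were lower. By direction, 3.89% of genes were called higher and 4.36% lower in Ocn+/- testes, 2.54% and 3.09% in Ocn-/- testes, 1.21% and 2.68% in Ocn+/- forebrain and 1.8% and 3.05% in Ocn-/- forebrain. For both mutants together these shares were 4.51% and 5.43% in testes and 3.29% and 5.39% in forebrain. The median log2 fold change of the 9 members was -0.06 in Ocn+/- testes, -0.17 in Ocn-/- testes, -0.14 in Ocn+/- forebrain and -0.30 in Ocn-/- forebrain, while the median of all genes tested was within 0.01 of 0 in each. With 9 members, 1 call is 11.1% of them, and these shares rest on 1 or 2 genes that the choice of the set had in view, so nothing is read from them. The 2 comparisons within an organ share their WT libraries and are not independent of each other.

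Between the mutant genotypes 0 members passed edgeR's test in either organ, and 1 member in each organ had an unadjusted p under 0.05, Id1 both times, where 11.5% of all genes in testes and 3.2% in forebrain did. Among all genes, edgeR called 0% between Ocn-/- and Ocn+/- in testes and 0.00622%, or 1 gene, in forebrain. DESeq2 and the likelihood ratio test of edgeR also called 0 members, where DESeq2 called 0.465% of all genes in testes and 0.0311% in forebrain.

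Id2, which keeps neural and other progenitors from differentiating and restrains E proteins in many tissues, was lower in mutants of both organs. In WT testes Id2 stood at 70.9 and 74.6 CPM. The Ocn+/- testes had 32.4, 41.9 and 52.1 CPM, and the Ocn-/- testes 36.2, 41.8 and 29.7 CPM. Every mutant testis lay below both WT testes, and the mutant genotypes overlapped. The mean was 57.9% of WT in Ocn+/- and 49.3% of WT in Ocn-/-. The log2 fold change was -0.79 ± 0.18 in Ocn+/- (edgeR adjusted p = 0.0174) and -1.02 ± 0.18 in Ocn-/- (edgeR adjusted p = 0.00473). In these bulk samples, fewer cells that express a gene and less RNA of it per cell cannot be told apart. The fold in Ocn+/- testes did not pass without the first or the second WT testis (adjusted p = 0.113 and 0.172) or without the first Ocn+/- testis (0.0698), and that in Ocn-/- testes did not pass without the second WT testis (0.0971). The direction held in all of these.

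In WT forebrain Id2 was at 149, 175 and 187 CPM. Ocn+/- forebrains had 91.8, 113 and 121 CPM and Ocn-/- forebrains 95.2, 78.8 and 113 CPM. Again every mutant library lay below every WT library, and the mutant genotypes overlapped. Means were 63.7% of WT in Ocn+/- and 56.3% of WT in Ocn-/-, and the log2 fold change was -0.65 ± 0.13 in the first (edgeR adjusted p = 0.0172) and -0.83 ± 0.13 in the second (edgeR adjusted p = 0.00461). Without the WT library that stood apart they were -0.58 ± 0.15 (adjusted p = 0.101) and -0.75 ± 0.15 (adjusted p = 0.0376). The Ocn+/- fold also missed the threshold without the second WT, the first Ocn+/- or the second Ocn+/- forebrain, and the Ocn-/- fold passed under every alternative tried. Id2 rested on 235 to 591 counts per library in testes and 1049 to 1954 in forebrain. The change in forebrain minus that in testes was 0.18 ± 0.21 (edgeR adjusted p = 0.703), so a difference between the organs was not detectable at this depth and number of libraries. A lower level of every mutant library than of every WT library was found for 2 members in testes (13.6% of all genes) and for 1 in forebrain (8.57%), and a higher level of every mutant forebrain for 0 members (6.85% of all genes).

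Id3, which acts in vessel growth and in lymphocyte development, was lower in Ocn-/- testes and did not pass the test against WT in forebrain. In WT testes it stood at 69.1 and 66.4 CPM, in Ocn+/- testes at 45.6, 52.2 and 53.2 CPM, and in Ocn-/- testes at 45.8, 40.02 and 40.6 CPM. The highest mutant value, 53.2 CPM, was under the lower WT value. The level was 74.3% of WT in Ocn+/- (log2 fold change -0.43 ± 0.13, edgeR adjusted p = 0.0583) and 62.2% of WT in Ocn-/- (-0.68 ± 0.14, edgeR adjusted p = 0.00801). Only the second of these passed the test. That in Ocn+/- passed in 7 of 18 alternatives, among them GC offsets (-0.63, edgeR adjusted p = 0.0104). The fold in Ocn-/- missed the threshold without the first (adjusted p = 0.0914) or the second WT testis (0.136).

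In WT forebrain Id3 was at 20.0, 19.2 and 14.1 CPM, the lowest being the library that stood apart. The Ocn+/- forebrains had 19.6, 21.4 and 20.5 CPM and the Ocn-/- forebrains 19.7, 20.8 and 24.8 CPM, so that all 3 genotypes overlapped. The log2 fold changes of 0.18 ± 0.14 and 0.27 ± 0.14 did not pass edgeR's test (adjusted p = 0.499 and 0.274), and they were 0.065 ± 0.14 and 0.15 ± 0.14 without that WT library (adjusted p = 0.873 and 0.641). Id3 was the only member whose mutant effect, both genotypes averaged, differed between the organs in the joint fit, in which 2.96% of 17800 genes did, 1.71% with a higher and 1.24% with a lower change in forebrain. The forebrain change minus the testes change was 0.80 ± 0.17 (edgeR adjusted p = 0.0135). It was 0.67 ± 0.17 without the forebrain library that stood apart (adjusted p = 0.0484), and it missed the threshold without the first (0.0800) or the second WT testis (0.0738).

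**Figure D2:**
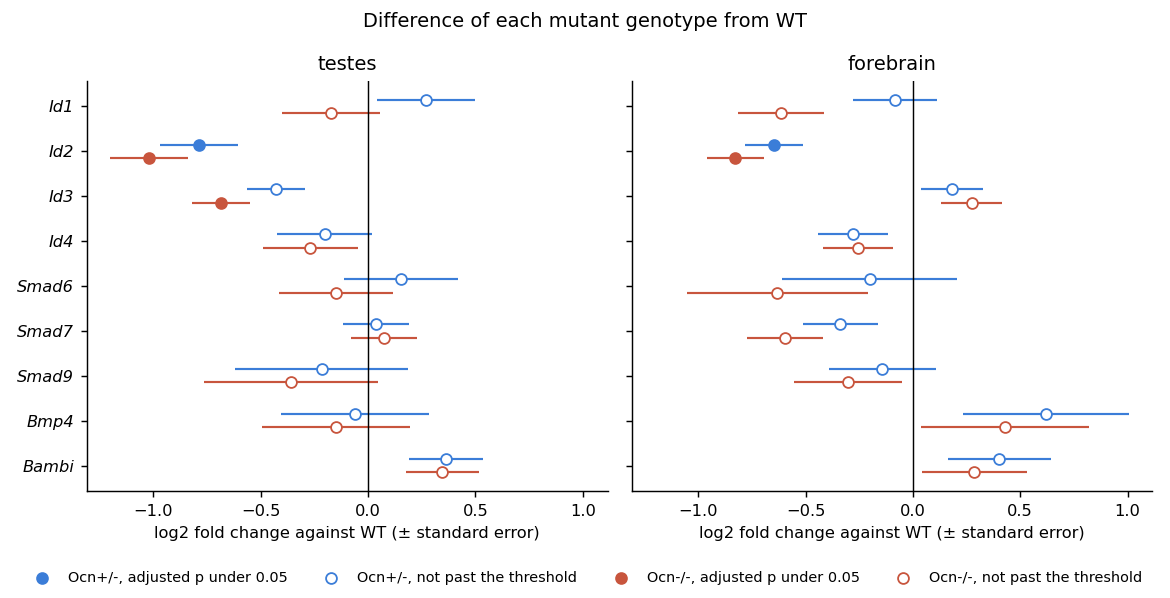
Log2 fold change of each gene against WT, with its standard error as bar, in testes (left) and forebrain (right), for Ocn+/- and Ocn-/-. Filled points passed edgeR's test over all genes (adjusted p under 0.05): Id2 in all 4 comparisons and Id3 in Ocn-/- testes, while Id3 in forebrain and Bambi in both organs lie on the side of higher levels without passing.

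Id1, the family member most tightly tied to BMP signals in endothelium and stem cells, had its lowest levels in Ocn-/- forebrains. The values were 10.4, 10.6 and 10.7 CPM in WT, 7.91, 9.92 and 11.96 CPM in Ocn+/- and 5.59, 6.43 and 8.58 CPM in Ocn-/- forebrain. Every Ocn-/- forebrain was below every WT forebrain, whereas the Ocn+/- forebrains spread to both sides of WT. The share of all genes with such a separation of Ocn-/- alone was not computed, so nothing is read from it. The Ocn-/- mean was 65.1% of WT, with a log2 fold change of -0.62 ± 0.20 that did not pass edgeR's test (adjusted p = 0.0791) but passed in 4 of 19 alternatives, and it was -0.61 ± 0.22 without the WT library that stood apart (adjusted p = 0.198). Against Ocn+/- it was -0.53 ± 0.19 (edgeR adjusted p = 0.999). Id1 in forebrain rested on 60 to 178 counts per library.

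In testes Id1 was at 26.4 and 32.8 CPM in WT, at 27.6, 31.8 and 47.9 CPM in Ocn+/- and at 26.1, 21.4 and 31.3 CPM in Ocn-/-. All genotypes overlapped, and 1 Ocn+/- testis was far above the others. The log2 fold changes against WT were 0.27 ± 0.23 and -0.17 ± 0.23, and that of Ocn-/- against Ocn+/- was -0.44 ± 0.20 (edgeR adjusted p = 0.427). With a library left out, the Ocn+/- change ranged from 0.0046 to 0.45. That of Ocn-/- against Ocn+/- ranged from -0.59 to -0.18. Both had their highest edgeR adjusted p (0.993 and 0.899) without the high Ocn+/- testis.

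Id4, which marks spermatogonial stem cells in the testis and neural progenitors in the brain, did not pass the test in any genotype. In forebrain the third WT library had 133 CPM, against 92.3 and 82.2 CPM in the other 2 WT, 81.0 to 85.6 CPM in Ocn+/- and 72.2 to 101 CPM in Ocn-/- libraries. The high WT value is that of the library that stood apart: the log2 fold changes of -0.28 ± 0.16 and -0.26 ± 0.16 were -0.06 ± 0.12 and -0.03 ± 0.12 without it. In testes Id4 ranged from 14.2 to 23.5 CPM over all 8 libraries with fold changes of -0.20 ± 0.22 and -0.27 ± 0.22, and all genotypes overlapped. These fold changes were -0.015 and -0.081 without the second WT testis, and -0.35 and -0.41 without the first.

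Summed per kb, the 4 Id genes reached 71.1 ± 2.83 CPM in the 2 WT testes (mean ± SD), 56.8 ± 9.35 in Ocn+/- and 46.5 ± 2.16 in Ocn-/- pups (n = 3 each). In forebrain the sum was 96.5 ± 9.71 in WT, 73.9 ± 5.79 in Ocn+/- and 69.1 ± 4.49 in Ocn-/- (n = 3 each). In both organs the highest mutant library stayed under the lowest WT library, at 66.0 against 69.1 in testes and 79.0 against 88.6 in forebrain. The WT forebrains were at 88.6, 93.5 and 107, the highest being the library that stood apart. The make-up of the sum differed too. Id2 made up 56.1% ± 2.88 of it in WT forebrain, 46.7% ± 2.59 in Ocn+/- and 44.2% ± 5.69 in Ocn-/- forebrain. Its share in testes was 26.1% ± 0.0237 in WT, 18.7% ± 1.28 in Ocn+/- and 19.7% ± 3.70 in Ocn-/-. The share of Id3 stayed between 44.1% and 47.3% on average in testes, and in forebrain it was 14.0%, 12.7% and 8.15% in the WT libraries, the last being the one that stood apart, and 18.6% to 20.7% in Ocn-/-. The sum was built from genes picked with these results known, so no test was made of it.

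**Figure D3:**
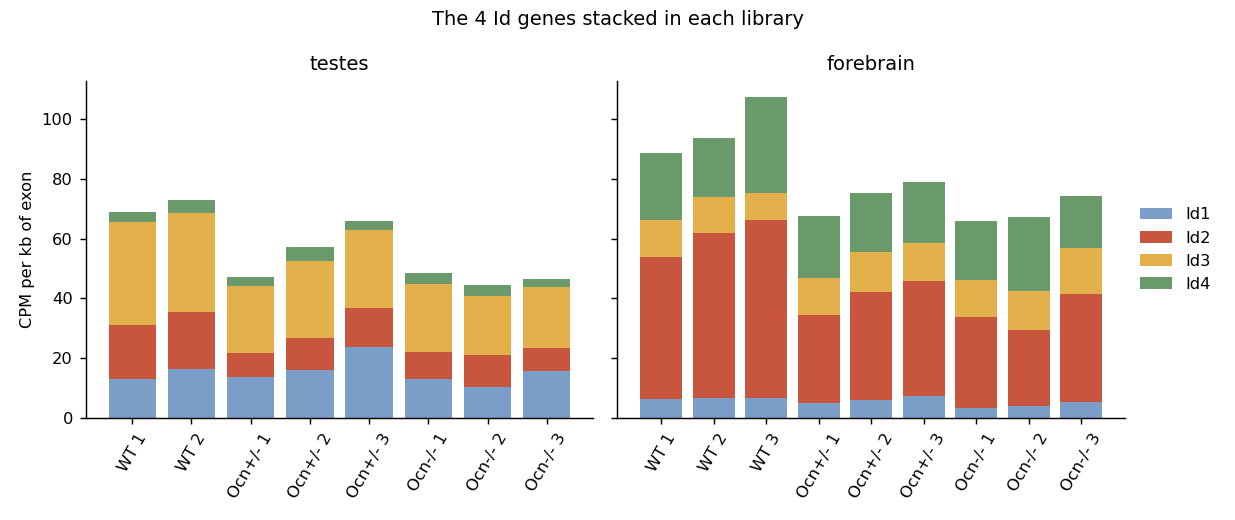
Stacked bars of Id1, Id2, Id3 and Id4 in each library, in CPM per kb of exon (normalized over both organs, axis from 0), for testes (left) and forebrain (right). Forebrain bars are mostly Id2 and Id4, testes bars mostly Id3, Id2 and Id1, and the bars of mutant libraries stay at or under 66.0 in testes and 79.0 in forebrain.

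Neither inhibitory SMAD passed edgeR's test against WT in either organ. Smad7, which blocks BMP and TGF-beta receptors alike, was at 75.3 and 79.6 CPM in WT testes, 78.8 to 80.3 CPM in Ocn+/- and 65.7 to 101 CPM in Ocn-/- testes, with log2 fold changes of 0.04 ± 0.15 and 0.07 ± 0.15. In forebrain it was at 12.05, 17.05 and 16.0 CPM in WT, at 10.7, 11.4 and 13.2 CPM in Ocn+/- and at 8.95, 8.91 and 11.7 CPM in Ocn-/- libraries. Every Ocn-/- forebrain was below every WT forebrain, the closest pair being 11.7 and 12.05 CPM. Here too the share of all genes with this separation was not computed, and nothing is read from it. The Ocn-/- mean was 65.4% of WT (log2 fold change -0.60 ± 0.18, edgeR adjusted p = 0.0556), just outside the threshold, and it passed in 8 of 19 alternatives. Without the WT forebrain that stood apart the fold change was -0.55 ± 0.19 (adjusted p = 0.184). The difference between the organs was -0.51 ± 0.21 and did not pass (edgeR adjusted p = 0.186).

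Smad6, which preferentially blocks BMP receptors, was at 16.1 and 19.8 CPM in WT testes and spread from 11.5 to 23.8 CPM over the Ocn-/- testes, so the genotypes overlapped. In forebrain it rested on only 12 to 27 counts per library. The level there was 1.04 to 1.66 CPM in Ocn-/- and 1.38 to 3.38 CPM in WT libraries, the highest again being the one that stood apart, and the log2 fold change of -0.63 ± 0.42 was -0.19 ± 0.43 without it. Smad9, a receptor SMAD of the BMP branch, ranged from 2.15 to 6.43 CPM in testes and from 2.64 to 4.45 CPM in forebrain. Its fold changes lay between -0.36 and -0.14 with standard errors of 0.25 to 0.40, and none passed the test.

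Bmp4, the ligand of the set, was much alike in WT and Ocn+/- testes, at 11.5 and 14.1 CPM in WT and 10.9 to 13.7 CPM in Ocn+/- libraries. The Ocn-/- testes were spread over 16.5, 12.7 and 5.43 CPM, more widely than any other group of this gene. In forebrain it was scarce, with 9 to 45 counts per library, and its log2 fold changes of 0.62 ± 0.39 and 0.43 ± 0.39 did not pass. Bambi, the pseudoreceptor that takes the place of a type I receptor, was at 26.3 and 30.5 CPM in WT testes, at 33.2, 33.2 and 43.3 CPM in Ocn+/- and at 35.8, 32.9 and 39.7 CPM in Ocn-/- testes. All 6 mutant testes were above both WT testes, a pattern of 12.5% of all genes in testes. The log2 fold changes of 0.36 ± 0.17 and 0.35 ± 0.17 did not pass edgeR's test (adjusted p = 0.191 and 0.239) under any alternative tried. In forebrain Bambi ranged from 3.28 to 6.65 CPM with overlapping genotypes.

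The other genes of the BMP pathway, a list of 62 ligands, receptors, SMADs, antagonists, regulators and target genes, were tested for 50 members in testes and 52 in forebrain. In Ocn+/- testes 5 were lower and 1 was higher, and in Ocn-/- testes 6 were lower and 1 was higher, with median log2 fold changes of -0.12 and -0.17 over the list. Of all genes 8.25% and 5.64% passed in these comparisons, so that 6 and 7 of 50 are to be read against those shares. Without the first WT testis the calls were 3 lower in each genotype, and without the second 1 and 2, Tob1 being called each time. In forebrain 1 was higher in each mutant genotype and 0 were lower, with medians of -0.04 and -0.13, where 3.89% and 4.85% of all genes passed. At an unadjusted p under 0.05 there were 11 and 13 in forebrain, where 20.3% and 21.7% of all genes lay under it, so these counts are near the background. DESeq2 called 5 and 3 of the list, and 5.65% and 7.1% of all genes. Without the WT forebrain that stood apart none of the list passed in forebrain.

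Of the ligands, Bmp2, which drives bone and heart formation and is made by endothelium and stroma, had the largest change of the calls. It was at 14.0 ± 2.63 CPM in WT testes (mean ± SD, 2 libraries) and at 3.74 ± 0.924 and 3.24 ± 0.792 CPM in Ocn+/- and Ocn-/- testes (3 libraries each). The log2 fold changes were -1.90 ± 0.31 and -2.10 ± 0.31 (edgeR adjusted p = 0.00245 and 0.00104), and the call in Ocn+/- was lost without the second WT testis. Its change differed between the organs by 1.91 ± 0.43 (edgeR adjusted p = 0.0178). Bmp6 fell in Ocn-/- testes, from 32.3 ± 0.477 to 19.0 ± 3.19 CPM (log2 fold change -0.77 ± 0.19, edgeR adjusted p = 0.0248), a call lost in 4 of 18 alternatives, including those without either WT testis. Gdf11, a ligand that patterns the body axis and signals mostly through activin-type receptors, rose in the Ocn-/- genotype of both organs, by 0.82 ± 0.23 in testes (edgeR adjusted p = 0.0493) and 0.46 ± 0.13 in forebrain (edgeR adjusted p = 0.0448). These calls were close to the threshold and were lost in 10 of 18 and 10 of 19 alternatives. Gdf10 rose in Ocn+/- forebrain by 0.65 ± 0.14 (edgeR adjusted p = 0.0143), a call lost in 2 of 19 alternatives, without the WT forebrain that stood apart and without the third Ocn+/- forebrain.

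Among receptors, Eng (endoglin, the co-receptor of endothelial cells) fell from 155 ± 10.01 CPM in WT testes to 108 ± 4.35 in Ocn+/- and 87.6 ± 8.58 in Ocn-/- testes, log2 fold changes of -0.52 ± 0.12 and -0.82 ± 0.12 (edgeR adjusted p = 0.0172 and 0.000995). Rgmb, a co-receptor of the repulsive guidance family, rose in Ocn+/- testes by 0.59 ± 0.16 (edgeR adjusted p = 0.0379), a call lost in 7 of 18 alternatives. The type I and type II kinases showed no call: Bmpr1a was at -0.17 and -0.09 and Bmpr2 at -0.26 and -0.11 in Ocn+/- and Ocn-/- testes. Of the signal SMADs, Smad1 had -0.36 and -0.52 (edgeR adjusted p = 0.139 and 0.0539), and it passed with both mutant genotypes averaged (-0.44 ± 0.13, edgeR adjusted p = 0.0457). Smad5 and Smad4 were between -0.13 and 0.14 in testes, and Smad4 passed in forebrain with the mutants averaged (-0.26 ± 0.07). None of the 11 tested antagonists passed edgeR's test in either testes comparison, with 3 and 1 at an unadjusted p under 0.05 (25.9% and 23% of all genes), and DESeq2 called 1 (Fstl1, lower in Ocn-/-, where it called 8.09% of all genes). With the mutants averaged edgeR called Fstl1 lower too (-0.40, adjusted p = 0.0482). Of the 7 regulators, 3 were called lower in both testes comparisons, where 4.36% and 3.09% of all genes were called lower. Tob1, an antiproliferative protein that restrains SMADs, fell by 0.96 ± 0.13 and 0.87 ± 0.13 on the log2 scale, Skil, a SMAD co-repressor that TGF-beta itself induces, by 0.81 ± 0.14 and 0.71 ± 0.14, and Htra1, a secreted protease, by 0.50 ± 0.12 and 0.49 ± 0.12. Without the second WT testis the calls of Eng, Skil and Htra1 were lost in both genotypes, and without the first those of Htra1 in both, Eng in Ocn+/- and Skil in Ocn-/-. In forebrain Eng and Skil passed with the mutants averaged (-0.51 and -0.29). None of the 9 tested target genes outside the set (Hey1, Hes1 and others) passed edgeR's test in testes, with 2 and 3 at an unadjusted p under 0.05, against the same shares of all genes, and 0 by DESeq2. Hey1, a Notch and BMP target, had -0.90 and -0.89 there (edgeR adjusted p = 0.0938 and 0.114), and in forebrain it passed with the mutants averaged (-0.40 ± 0.10, edgeR adjusted p = 0.0218). For the calls with the mutants averaged, fits with a library left out are not reported here by gene. Over all genes, such calls in forebrain fell from 1395 to as few as 320 with a library left out.

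**Figure D4:**
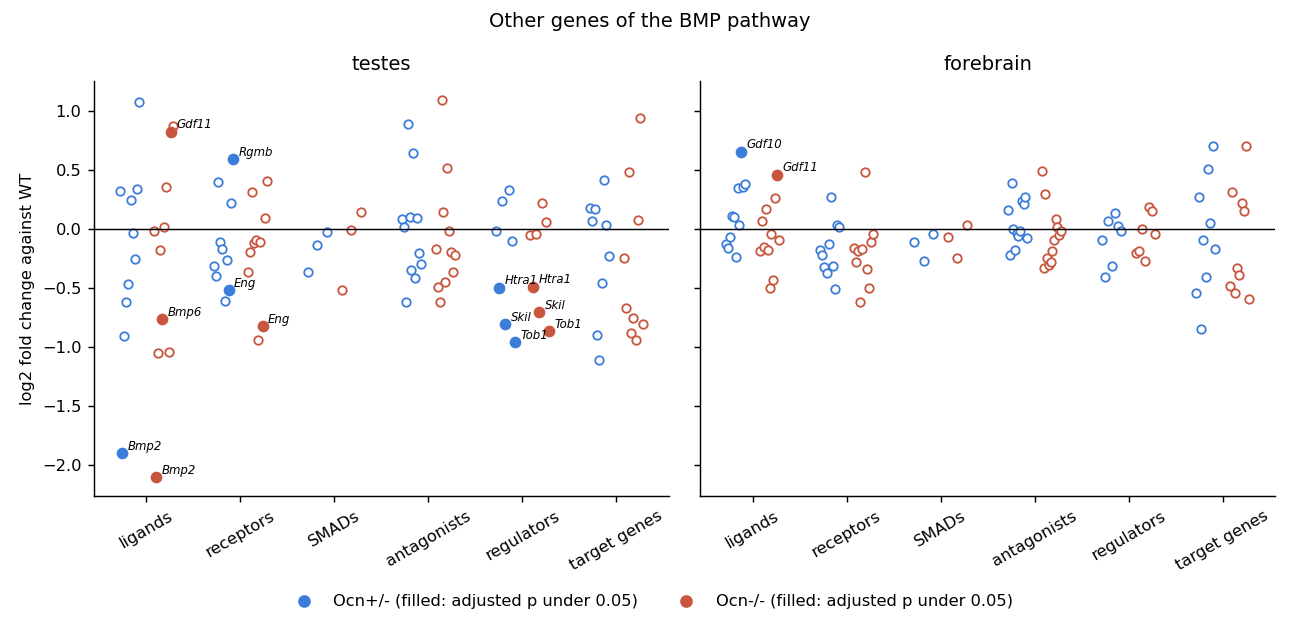
Log2 fold change against WT of each tested gene of the BMP pathway outside the set, grouped by role, for testes (left) and forebrain (right). Filled and named points passed edgeR's test over all genes. In testes most named points are lower in mutants, Bmp2 most so at -1.90 and -2.10, and in forebrain only Gdf10 and Gdf11 are named.

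The TGF-beta and activin branch, which shares SMAD7 and the co-SMAD with the BMP branch, had 21 of 22 listed genes tested in testes. None passed in Ocn+/- testes in edgeR's test (6 at an unadjusted p under 0.05 and 1 by DESeq2, against 25.9% and 10.4% of all genes), and 2 were lower in Ocn-/- testes, where 8.25% of all genes passed in the first comparison and 3.09% were called lower in the second. At an unadjusted p under 0.05 in edgeR's test there were 11 of the 21 in Ocn-/- testes, where 23% of all genes lay under it. Of the 2 lower genes only 1 is named here. It is Tgfbr2, the type II receptor (-0.60 ± 0.15), which was not called without the first or the second WT testis. In forebrain Tgfbr1, the type I receptor, was the only call among 19 tested genes, at -0.42 ± 0.11 in Ocn-/- (edgeR adjusted p = 0.0401). There 3.05% of all genes were called lower. The call was lost in 8 of 19 alternatives, among them the fit without the WT forebrain that stood apart.

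Of the E proteins and basic helix-loop-helix factors that ID proteins restrain, 10 of 18 were tested in testes and 15 in forebrain. In testes 1 of the 10 was called in Ocn+/- and 0 in Ocn-/-, where 8.25% and 5.64% of all genes passed. Tcf3, the E protein E2A, rose in Ocn+/- testes from 102 ± 0.918 to 157 ± 4.97 CPM (log2 fold change 0.63 ± 0.14, edgeR adjusted p = 0.0138), and was at 119 ± 20.4 CPM in Ocn-/- testes, which did not pass. The call in Ocn+/- testes was lost in 5 of 18 alternatives: without either WT testis, without the third Ocn+/- testis, and with GC offsets alone or with the replicate block. In forebrain 2 of 15 were higher in both mutant genotypes, where 1.21% and 1.8% of all genes were called higher. Olig1, a factor of the oligodendrocyte lineage, rose from 53.5 ± 8.51 CPM in WT to 72.3 ± 5.07 in Ocn+/- and 70.5 ± 5.01 in Ocn-/- forebrain (log2 fold changes of 0.42 ± 0.11 and 0.39 ± 0.11, edgeR adjusted p = 0.0358 and 0.0455). The Olig1 call was lost in 4 of 19 alternatives in Ocn+/- and in 10 of 19 in Ocn-/- forebrain, the latter including upper quartile scaling. Without the WT forebrain that stood apart 0 of 15 were called in either genotype.

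Some markers of other cells also differed between WT and mutant libraries, while others overlapped. The 12 endothelial markers, summed, were at 716 to 721 CPM in WT testes, 474 to 546 in Ocn+/- and 450 to 467 in Ocn-/- testes, with 4 and 7 of 12 called lower (Pecam1, Flt1, Emcn and Kdr in both), where 4.36% and 3.09% of all genes were called lower. In forebrain their sum was 247 to 295 CPM in WT, 202 to 249 in Ocn+/- and 205 to 273 in Ocn-/- libraries, with 3 and 2 called lower (2.68% and 3.05% of all genes) and Sox18 called higher in both (1.21% and 1.8% of all genes). The 7 mural cell markers were at 464 to 558 CPM in WT, 384 to 411 in Ocn+/- and 301 to 369 in Ocn-/- testes. Of these, 1 and 4 of 7 were called lower, against the same 4.36% and 3.09% of all genes. In forebrain they were at 271.09 to 306 CPM in WT, 227 to 293 in Ocn+/- and 229.5 to 270.98 in Ocn-/- libraries, so every Ocn-/- forebrain lay below WT, the closest by little. Abcc9 was the only mural call there, lower in both genotypes, where 2.68% and 3.05% of all genes were called lower. No endothelial or mural marker was at 0 in all libraries of an organ. Immediate-early genes, which respond within minutes to stimuli and handling, summed to 465 to 516 CPM in WT testes, 216 to 557 in Ocn+/- and 180 to 231 in Ocn-/- testes, and to 123 to 138, 77.8 to 174 and 70.0 to 85.0 CPM in the same order in forebrain. Choroid plexus markers reached 621 to 787 CPM in WT, 616 to 913 in Ocn+/- and 353 to 578 in Ocn-/- forebrain. The part of any of these in the levels of Id1, Id2, Id3 or Smad7 was not tested.

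**Figure D5:**
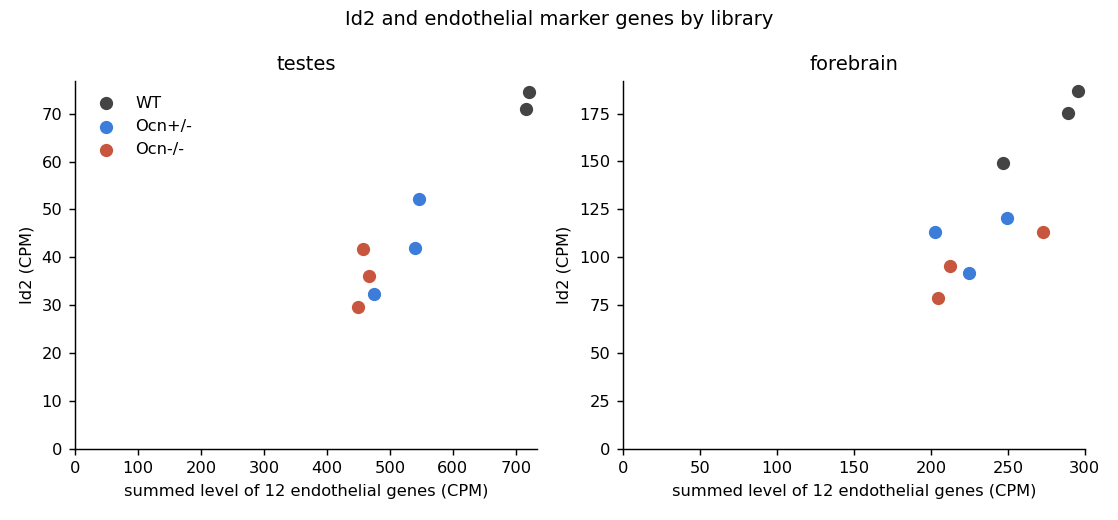
Level of Id2 against the summed level of the 12 endothelial markers, both in CPM on linear axes from 0, with 1 point per library coloured by genotype, for testes (left) and forebrain (right). In testes the WT libraries lie apart at the upper right in both measures, and in forebrain WT lies above the mutants in Id2 while the marker sums of the genotypes overlap.

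The remaining marker lists were measured the same way. In testes, fetal Leydig cell markers summed to 1873 to 1985 CPM in WT, 910 to 1472 in Ocn+/- and 928 to 1368 in Ocn-/- libraries, so every mutant lay below WT. Sertoli cell markers reached 2640 to 2942, 2585 to 3146 and 2651 to 3743 CPM in the same order, germ cell markers 384 to 444, 330 to 388 and 347 to 376 CPM, and peritubular myoid markers 915 to 1132, 780 to 991 and 665 to 887 CPM. The stroma sum was 2462 to 2731 CPM in WT, 2126 to 2512 in Ocn+/- and 1944 to 2115 in Ocn-/- testes, so every Ocn-/- testis lay below WT. All 5 tested stroma genes were lower in Ocn-/- testes, and 0 were called there. The sums of macrophage and adipocyte markers overlapped between WT and both mutant genotypes. The erythroid sum, a sign of blood in the sample, was 2597 to 6861, 865 to 3941 and 1315 to 2515 CPM in the same order. Among the stroma, macrophage and adipocyte genes, Cx3cr1 was called higher and Pdgfra lower in Ocn+/- testes, and Fabp4 lower in both genotypes. Of all genes, 3.89% were called higher and 4.36% lower in Ocn+/- testes, and 3.09% lower in Ocn-/- testes. Of the 8 tested macrophage genes, 3 were higher and 5 lower in Ocn+/- testes. In forebrain, neuron markers summed to 8409 to 8851 CPM in WT, 7652 to 8226 in Ocn+/- and 7956 to 8086 in Ocn-/- libraries, again with every mutant below WT. Of the 7 neuron markers, however, 4 were higher and 3 lower in Ocn+/-, and 2 were higher and 5 lower in Ocn-/-. Only Dcx was called, lower in both, where 2.68% and 3.05% of all genes were called lower. Radial glia and astrocyte markers summed to 1309 to 1373, 1499 to 1546 and 1333 to 1698 CPM in the same order. Oligodendrocyte lineage markers, which include Olig1, reached 235 to 259, 289 to 317 and 255 to 306 CPM, and the sums of hippocampus, meningeal and microglial markers overlapped between all genotypes. Of the 7 tested microglial genes, 4 were higher and 3 lower in Ocn+/- forebrain, and 2 were higher and 5 lower in Ocn-/- forebrain. The only call was Cx3cr1, a chemokine receptor, higher in both mutants, where 1.21% and 1.8% of all genes were called higher. It was at 6.23 to 11.8 CPM in WT and 17.7 to 21.2 CPM in the 6 mutant forebrains (log2 fold changes of 0.84 ± 0.17 and 0.91 ± 0.17). The erythroid sum was 522 to 719 CPM in WT, 356 to 407 in Ocn+/- and 486 to 599 in Ocn-/- forebrain, so every Ocn+/- forebrain lay below WT, and 3 of 5 tested erythroid genes were called lower there, against 2.68% of all genes. Their part in the levels of the 9 genes was not tested either.

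The genes whose pattern over the libraries was most like that of a member were found by the root mean square difference of centred log2 levels, which is 0 for an identical pattern. For Id2 in the 8 testes libraries these were Arrdc3 (0.11), Klhl13 (0.12), Kdr (0.12), Pecam1 (0.14) and Utp14b (0.14) among 12490 genes, while the SD of Id2 itself was 0.49. In the 9 forebrain libraries they included Snhg17 (0.05), Rbm33 (0.08), Ccnl1 (0.10) and Traf6 (0.10) among 11911 genes, against an SD of 0.42. For Id3 in testes they included Map3k15, Fam217b, Mmp19 and Selenos (0.07 to 0.10), and for Id1 they were Uap1l1, Irs2, Ier2, Tbc1d22a and Osr2 in testes (0.11 to 0.13) and Prrt1, Apod, Cdh1, Plpp6 and Nr4a1 in forebrain (0.11 to 0.15). No gene was named for Id2 in both organs. These libraries share the contrast between WT and mutants, which any gene that moves with it also follows.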

How the data were processed

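RNA of 17 libraries of newborn mice was sequenced by the authors from poly-A libraries (NEBNext Ultra). Per the labels and the study's methods, reads were trimmed with Trim Galore 0.6.6, aligned to GRCm39 with STAR 2.7.8a and counted with RSEM 1.3.3, and the authors deposited 1 table of expected counts per gene, without normalization. The GENCODE release is not given in the sources used here, and 54749 of the 55359 identifiers were found in GENCODE vM39. Samples were grouped by organ and genotype from their labels. Expected counts were rounded and tested with edgeR 4.0.16 in R 4.3.3: TMM normalization, filterByExpr by group, robust quasi-likelihood tests without covariates over all genes, each organ alone with its 3 genotypes, a joint fit for differences between the organs, two-sided, and Benjamini-Hochberg adjustment with a threshold of 0.05. All 9 members passed the filter in both organs. The biological coefficient of variation was 0.153 in testes and 0.115 in forebrain. Levels are CPM with TMM scaling. Likeness used log2 CPM with a prior count of 2 over genes of at least 5 CPM on average.

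The members and gene lists were chosen with earlier results of these data known. Of the pathway lists the text names, per role and organ, at most 3 genes called against WT with the largest mean change. Bmpr1a, Bmpr2, Smad1, Smad4, Smad5, Hey1, the marker genes and the genes of lists that are given without a call were named after their values were seen. A few genes that the rule would name are not reported here. The fits were also run on simulated counts, and the outcome is not reported here. Same-numbered libraries, centred on their group, correlated by at most 0.15, and replicate numbers were not used as pairs in the main fits. Alternatives were other scalings, DESeq2 1.42.0, edgeR's likelihood ratio test, other filters, a fit of the compared genotypes alone, a replicate block, offsets for GC content and each library left out.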

Additional observations from a re-analysis of the deposited data

Results flagged for a closer look

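Id3 stood out by a difference between the organs. The mean change of both mutant genotypes against WT was 0.80 higher on the log2 scale in forebrain than in testes (standard error 0.17, edgeR adjusted p = 0.0135 over all genes). It was -0.56 in testes, where all 6 mutant libraries were below both WT libraries, and 0.23 in forebrain, where the genotypes overlapped. The adjusted p ranged from 0.00104 to 0.0800 over 26 alternatives, and it was above 0.05 without either WT testis.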

How the results depend on the processing

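Id2 kept its lower level in every alternative, between -0.97 and -0.63 on the log2 scale in Ocn+/- testes, -1.14 to -0.90 in Ocn-/- testes, -0.74 to -0.54 in Ocn+/- forebrain and -0.96 to -0.70 in Ocn-/- forebrain. With 1 library left out at a time, 0 to 2 members were called in Ocn+/- testes, 0 to 2 in Ocn-/- testes and in both mutants of testes, 0 to 1 in Ocn+/- forebrain, 1 to 3 in Ocn-/- forebrain, 1 to 2 in both mutants of forebrain and 0 to 1 in the difference between organs. The calls in testes fell to 0 in both genotypes without the second WT testis. Calls over all genes moved more: they ranged with a library left out from 118 to 2019 in Ocn+/- testes, 85 to 1559 in Ocn-/- testes, 183 to 830 in Ocn+/- forebrain and 189 to 919 in Ocn-/- forebrain, and under the other alternatives up to 2149, 1763, 1265 and 1502, each without a filter on low counts.

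In Ocn+/- testes 2 members (Id2 and Id3) were called by the likelihood ratio test, with at least 10 counts in every library, with only the 2 genotypes compared and with GC offsets. In Ocn-/- forebrain 2 were called by DESeq2, the likelihood ratio test and without a filter, and 3 with the replicate block, GC offsets or both. For both mutants in forebrain 2 were called by the likelihood ratio test, the replicate block, GC offsets or both, and 3 without a filter. The cause was not tested. Same-numbered libraries correlated by -0.04 to 0.15 in forebrain (2 of 9 pairs over 0.1) and -0.09 to 0.09 in testes (0 of 7). With so few libraries per group these values cannot show whether same-numbered libraries are related. With the replicate block and GC offsets, Id2 in Ocn+/- testes had an adjusted p of 0.0561 (edgeR).

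Uncalled members near 0 changed sign in testes. In Ocn+/-, Smad7 was at -0.043 with the replicate block, -0.25 with GC offsets and -0.30 with both, Smad6 at -0.17 with GC offsets and -0.28 with both, Id1 at -0.11 with both, and Bmp4 at 0.017 with library size alone, 0.15 with the replicate block and 0.031 with the replicate block and GC offsets. In Ocn-/- testes Smad7 was at -0.026 with the replicate block, -0.00058 with GC offsets and -0.063 with both. With 1 library left out, ranges crossed 0 for Smad9 (-0.36 to 0.017) and Bmp4 (-0.19 to 0.11) in Ocn+/- testes, for Id1 (-0.32 to 0.012), Smad6 (-0.53 to 0.042), Smad7 (-0.11 to 0.23) and Bmp4 (-0.48 to 0.19) in Ocn-/- testes, and for Id1 (-0.24 to 0.058) and Smad6 (-0.42 to 0.24) in Ocn+/- forebrain. Scaling by library size alone moved the median of all genes to 0.11 in Ocn-/- forebrain and to -0.39 between the organs, and changed the share of higher calls there from 37.2% to 64.5% and from 48.0% to 36.9%. That share also moved from 31.0% to 47.7% in Ocn+/- forebrain, from 47.2% to 68.1% in Ocn+/- testes and from 45.1% to 65.2% in Ocn-/- testes.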
